A study of Mus musculus with 32 samples.

Results

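The 10 genes described here encode subunits of the nucleosome remodelling and deacetylase (NuRD) complex: Chd4, Chd3, Hdac1, Hdac2, Mta1, Mta2, Mta3, Mbd3, Gatad2a and Gatad2b. They were chosen by name, out of 21938 protein-coding genes annotated on the mm10 mouse genome. Every peak called for Ikaros, for the remodeller CHD4 or for acetylated lysine 27 of histone H3 (H3K27ac) within 20 kb of the 5′ end of 1 of these genes was collected. Peaks of a target that overlapped by at least 1 bp in any library were joined into a region. This gave 23 of 23856 Ikaros regions, 12 of 15358 CHD4 regions and 39 of 39309 H3K27ac regions, or 74 of 78523 in all.

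Chromatin immunoprecipitation and sequencing (ChIP-seq) was done in B3, a mouse pre-B cell line. All cells carried a retroviral Ikaros-ERt2 construct with an HA tag, and the Ikaros libraries were made with anti-HA beads, so they report the introduced protein and not the cells' own Ikaros. The ERt2 part is a modified oestrogen receptor domain that lets the fusion enter the nucleus when 4-hydroxytamoxifen (4-OHT) binds it. Cells received no treatment (0 h) or 500 nM 4-OHT for 30 min, 1 h or 2 h, and each target had 2 replicates per time, which made 8 libraries per target. No control without the construct was analysed here, and the labels do not say whether replicates came from separate cultures, so p-values measure the spread between these libraries only, which may be technical. Chromatin was fixed with DSG and formaldehyde before it was cut.

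NuRD is a corepressor that joins ATP-dependent nucleosome remodelling to the removal of acetyl groups from histones. CHD4 or CHD3 supplies the remodelling motor, HDAC1 and HDAC2 are the deacetylases, MTA proteins form the scaffold that holds them, and MBD3 and the GATAD2 proteins link this deacetylase core to the remodeller. In lymphocytes Ikaros is a well-known partner of the complex, and the question addressed here is where Ikaros, CHD4 and the acetyl mark lie at the genes that encode the complex itself.

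Ikaros summits lay at named points near 4 of the genes, and the sequence there is shown because the results below turn on these regions. Each is 101 bases of the plus strand, 50 on either side of the Ikaros summit in the library with the highest fold for that region, read from GRCm38.p6 (mm10). Capitals mark GGAA, GGGA and their reverse complements TTCC and TCCC, the core letters of known Ikaros sites, and overlapping words run together. The windows are chr11:69366519-69366619 in a Chd3 intron, chr6:125092663-125092763 upstream of Chd4, chr8:70001594-70001694 upstream of Gatad2a and chr10:80399869-80399969 at the Mbd3 promoter.
Chd3: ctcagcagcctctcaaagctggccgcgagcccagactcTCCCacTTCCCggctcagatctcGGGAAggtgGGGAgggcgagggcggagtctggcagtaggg
Chd4: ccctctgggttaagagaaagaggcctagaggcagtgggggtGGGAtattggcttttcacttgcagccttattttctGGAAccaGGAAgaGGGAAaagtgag
Gatad2a: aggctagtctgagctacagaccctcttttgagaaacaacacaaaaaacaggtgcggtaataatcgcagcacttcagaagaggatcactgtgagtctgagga
Mbd3: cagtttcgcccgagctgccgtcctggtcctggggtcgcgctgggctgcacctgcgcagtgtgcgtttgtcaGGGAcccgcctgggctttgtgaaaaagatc

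The Chd3 window held 6 of these words, the Chd4 window 5, the Mbd3 window 1 and the Gatad2a window 0. None of the 4 windows held the longer word TGGGAA on either strand (TTCCCA on the other). Over all 109 Ikaros peaks of the regions near the 10 genes, 6 summit windows of 101 bases held that word (5.5%), beside 12675 of 87628 over all lists (14.5%). Repeated calls of a region are counted each time in both shares. The median number of short words was 4 near the NuRD genes and 3 over all peaks. RefSeq promoters of GRCm38.p6, from 250 bases before to 50 after a gene start, were matched for 7 of the 10 genes by symbol. TGGGAA or its complement was in 1 of these 10 promoters, an internal Gatad2a start, and in 8397 of 32851 promoters overall (25.6%).

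The value given for a peak is the authors' fold enrichment of its pileup over the local background, and a region takes its strongest peak in each library. The pileup was recovered as whole fragments for the Ikaros and H3K27ac peaks, and fold values of those are followed, where it matters, by a 95% Poisson interval that covers counting error only. The Ikaros libraries held 1.98 to 3.59 fragments over an average base and the H3K27ac libraries 3.75 to 4.34, while the broad CHD4 lists do not give their depth, which is unknown. A peak over the mean background needed at least 9 to 13 fragments to be called for Ikaros and 11 to 15 for H3K27ac, so a missing call means only that this was not reached. Lists held 5373 to 14874 Ikaros peaks, 2488 to 9593 CHD4 peaks (the fewest at 0 h in replicate 1) and 21468 to 33664 H3K27ac peaks.

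The cells were checked by H3K27ac peaks within 1 kb of a start site in both 0 h libraries. All 9 pre-B genes tested had one (among them Cd79a, Pax5, Ebf1 and Igll1), as did 0 of 5 T cell genes and 0 of 5 myeloid genes. Of 4 erythroid genes, Klf1 and Hbb-bs had a peak in 8 of 8 libraries, and Gata1 and Hba-a1 had none in any.

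All 10 NuRD genes carried acetylated promoters, while Ikaros and CHD4 reached few of them in both replicates. An H3K27ac peak lay within 1 kb of a start site in both 0 h and in both 2 h libraries at 10 of 10 genes, against 44.4% and 42.9% of all protein-coding genes. For Ikaros the count was 2 of 10 at 0 h (Hdac1 and Gatad2a) and 3 of 10 at 2 h (Chd4, Mta2 and Mbd3). The background was 12% and 21.9% of all protein-coding genes, or 26.5% and 48.1% of the 9737 genes with an acetylated promoter at 0 h. For CHD4 the count was 1 of 10 at 0 h (Hdac1) and 0 of 10 at 2 h, beside 2.13% and 5.88% of all protein-coding genes and 4.66% and 13% of those with an acetylated promoter. Against genes with an acetylated promoter, the Ikaros counts lay below the background at both times, and the CHD4 share lay above it at 0 h, through Hdac1 alone, and below it at 2 h. No test was made of these shares, which with 10 genes move by 10 percentage points a call. The Ikaros and CHD4 calls moved with the setting: with lists of equal size 0 genes kept an Ikaros promoter peak in both libraries at either time, and within 3 kb the Ikaros counts were 4 and 6. The CHD4 count at 2 h was 3 within 3 kb, and 2 when either replicate was left out. At 0 h it was 0 at a −log10 q of at least 3.

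**Figure D1:**
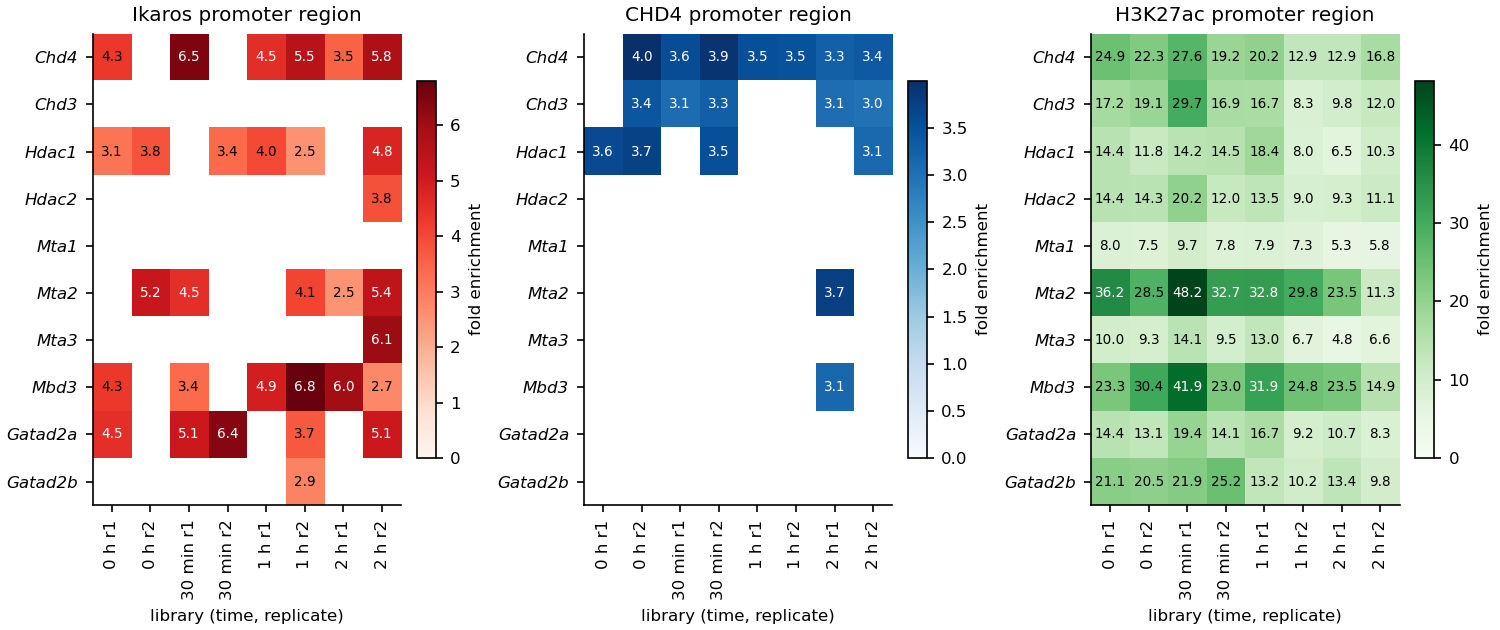
Fold enrichment of the promoter region of each NuRD gene (rows) in each library (columns, time and replicate) for Ikaros, CHD4 and H3K27ac, each with its own colour scale from 0; blank cells were not called. H3K27ac is filled in all 80 cells. The CHD4 regions of Chd4 and Chd3 come within 1 kb of a start site in 1 library only. In the others they lie farther upstream or inside the gene. The Ikaros region of Gatad2a comes within 1 kb in 3 of its 5 libraries. The H3K27ac summit of Chd4 lies 3258 to 3333 bp upstream at 0 h, 2 h and 30 min replicate 1. In the other libraries it lies 354 to 358 bp into the gene. That of Chd3 lies 853 to 2958 bp into the gene.

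At the remodeller gene Chd4, its own product was called in more libraries than near the other 9 genes, setting aside a neighbouring gene of Hdac1. The CHD4 region lay upstream (chr6:125089663-125095156, intergenic), came to within 825 bp of the 5′ end in its widest peak and was called in 7 of 8 libraries. The library without a call was 0 h replicate 1, the shortest CHD4 list. The CHD4 fold was 4.00 in 0 h replicate 2, 3.56 and 3.92 at 30 min, 3.53 and 3.47 at 1 h, and 3.25 and 3.37 at 2 h. The values at later times were no higher than those at 30 min, and the median fold over CHD4 regions called in all 8 libraries ran from 3.28 to 3.82. Ikaros occupied the same stretch in all 8 libraries (chr6:125089521-125092909, intergenic), 3072 bp upstream at its near edge. The Ikaros fold there was 6.79 and 6.80 at 0 h, 8.19 and 5.03 at 30 min, 4.83 and 10.5 at 1 h, and 5.40 and 7.36 at 2 h. The 2 libraries at 1 h were the lowest and the highest of the 8, so the spread between replicates covered that between times. In 6 of the libraries the summit was 3250 to 3476 bp upstream, and in the others (30 min replicate 2 and 1 h replicate 1) it was 5769 and 5835 bp upstream. A further Ikaros region covered the first part of the gene (chr6:125096086-125097631), with its median summit in a UTR, and was called in 6 of 8 libraries at folds of 3.52 to 6.46. It was missing in 0 h replicate 2 and 30 min replicate 2. Its summits lay 1218 and 1186 bp into the gene in the 0 h and 30 min calls. In the 1 h and 2 h calls they lay 191 to 337 bp into the gene, so the region joins different places. A single H3K27ac region of 13239 bp, joined over libraries from peaks of at most 10923 bp, covered all of these, with folds of 24.9 and 22.3 at 0 h and 12.9 and 16.8 at 2 h. The H3K27ac summits at these times lay 3258 to 3332 bp upstream and not at the start.

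Chd3, the gene of the alternative remodeller, held the Ikaros region with the highest fold and the highest median fold of the 23. The region lay in an intron (chr11:69365847-69367727) and was called in all 8 libraries, with summits 2793 to 2998 bp into the gene. The Ikaros fold was 10.4 (95% interval 8.09 to 13.2, 65 fragments) and 17.8 (14.0 to 22.2, 75 fragments) at 0 h. It was 6.78 and 6.37 at 30 min, 6.94 and 6.21 at 1 h, and 8.83 and 8.64 at 2 h, from 18 to 33 fragments. Both 0 h folds lay above all 6 induced folds, which 14.6% of the 2305 Ikaros regions called in all 8 libraries did too. As a rank among those regions the groups overlapped: the percentiles were 90.04 and 96.6 at 0 h and 93.3 and 79.9 at 2 h, with 63.1, 74.0, 52.1 and 42.7 between. Separation by rank was seen in 11.1% of regions. The 0 h Ikaros libraries were also the deepest, and the part of depth in this difference was not tested. CHD4 was called over the same part of the gene (chr11:69366318-69368485) in 5 of 8 libraries. Its fold was 3.41 in 0 h replicate 2, 3.07 and 3.28 at 30 min, and 3.06 and 2.99 at 2 h, with no call at 1 h in either replicate. The H3K27ac region across the start of Chd3 had folds of 17.2 and 19.1 at 0 h, 29.7 and 16.9 at 30 min, 16.7 and 8.33 at 1 h, and 9.85 and 11.95 at 2 h.

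**Figure D2:**
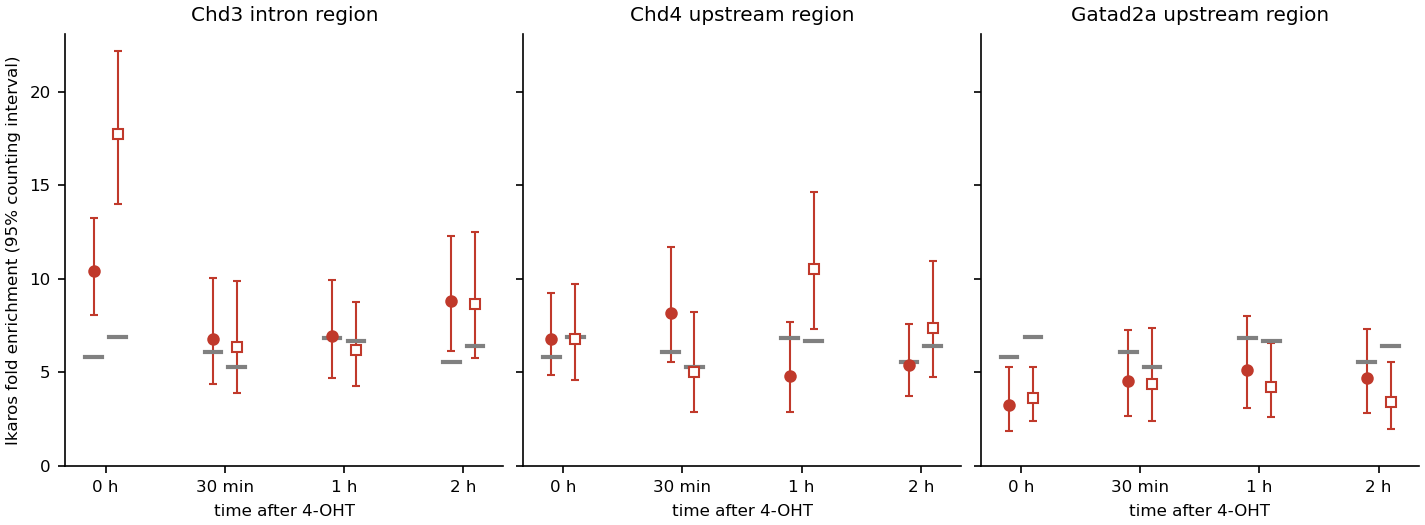
Ikaros fold enrichment (vertical axis) by time after 4-OHT at the Chd3 intron region, the Chd4 upstream region and the Gatad2a upstream region; filled circles are replicate 1, open squares replicate 2, bars are 95% Poisson counting intervals and grey dashes the library's median over the 2305 Ikaros regions called in all 8 libraries. At Chd3 the 0 h points, at 10.4 and 17.8, lie above the other 6, while at Chd4 and Gatad2a the times overlap.

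The deacetylase genes differed from each other in their Ikaros and CHD4 calls, which was not tested. Hdac1 had an Ikaros region over its start (chr4:129542049-129543328) in 6 of 8 libraries, with folds of 3.14 and 3.82 at 0 h, 3.35 in 30 min replicate 2, 3.98 and 2.53 at 1 h and 4.77 in 2 h replicate 2. These peaks held 9 to 21 fragments at the summit, and their summits moved between 321 bp upstream and 391 bp downstream of the 5′ end. The peaks of the 0 h replicates (chr4:129542232-129542462 and chr4:129542939-129543172) did not overlap each other. CHD4 was called there (chr4:129541965-129543473) in 4 libraries, at folds of 3.61 and 3.71 at 0 h, 3.52 in 30 min replicate 2 and 3.13 in 2 h replicate 2. Hdac1 was the only NuRD gene with a CHD4 promoter peak in both 0 h libraries. At Hdac2, whose product can stand in for HDAC1, Ikaros was called in 1 library (2 h replicate 2, fold 3.84, 11 fragments) and CHD4 in none. The H3K27ac folds at the Hdac1 and Hdac2 starts overlapped, at 6.47 to 18.4 (median 13.0) and 9.02 to 20.2 (median 12.8).

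Within 20 kb of Hdac1 but nearer to another gene lay 2 Ikaros regions that were called in all 8 libraries. Both lie within 1 kb of start sites of Lck, a kinase known for its role in T cell receptor signalling, with near edges 13681 and 15252 bp upstream of Hdac1. Their folds ran from 3.35 to 7.11 and from 4.05 to 6.68. A CHD4 region reached over both (chr4:129557337-129559160) and was called in 7 of 8 libraries, all but 0 h replicate 1, at folds of 2.97 to 3.84. H3K27ac was called there in all 8, at 5.38 to 13.1. These regions are in the set by distance alone, and no link with Hdac1 was measured.

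The 3 MTA scaffold genes held both the highest and the lowest median promoter acetylation of the set. Mta2 had the highest median H3K27ac promoter fold, 31.3 over the 8 libraries, though Mbd3 was higher in 3 of them. Its fold was 36.2 and 28.5 at 0 h, 48.2 and 32.7 at 30 min, 32.8 and 29.8 at 1 h, and 23.5 and 11.3 at 2 h. Both 2 h values were the lowest of the 8. Mta1 had the lowest median, with folds between 5.34 and 9.68, and lay below the library's median over shared regions in all 8 libraries. Mta3 lay between 4.81 and 14.1. The lowest Mta2 fold (11.3) still lay above the highest Mta1 fold (9.68), whereas the ranges of Mta1 and Mta3 overlapped. Ikaros was called at the Mta2 start (chr19:8941403-8942733) in 5 of 8 libraries, at 5.17 in 0 h replicate 2, 4.52 in 30 min replicate 1, 4.06 in 1 h replicate 2, and 2.52 and 5.36 at 2 h. The summits ran from 286 bp upstream to 713 bp into the gene. The 0 h peak overlapped neither the 30 min nor the 1 h peak. At the Mta3 start there was 1 call (2 h replicate 2, fold 6.08), and within 20 kb of Mta1 there was none in any library. CHD4 was called once at the Mta2 start (2 h replicate 1, fold 3.74) and nowhere within 20 kb of Mta1 or Mta3.

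Mta3 and Gatad2a also have internal starts outside the 20 kb window, which were looked at after their values were seen. An H3K27ac region lay within 1 kb of such starts at 4 places, each called in all 8 libraries, and none had a trend that passed. At Mta3 1 of them (chr17:83729298-83733938) had folds of 23.9 and 16.7 at 0 h, 22.9 and 11.6 at 30 min, 24.6 and 21.5 at 1 h, and 14.3 and 9.24 at 2 h, with a rho of 0. The times overlapped there, and only the 2 h lists had a peak of this region within 1 kb of the start itself. At the other Mta3 place (chr17:83788001-83792420) the H3K27ac fold was 17.9 and 14.8 at 0 h, 9.43 and 9.32 at 30 min, 8.82 and 6.52 at 1 h, and 7.71 and 5.96 at 2 h. Both 0 h folds lay above all induced folds, which 9.78% of H3K27ac regions called in all 8 libraries did, and both 0 h ranks (percentiles 70.8 and 70.5) lay above the others (28.6 to 45.0), which 8.53% did. The trend over the 4 times did not pass (rho = −0.59, exact permutation p = 0.153, adjusted p = 0.548). The rhos at the Gatad2a places were −0.24 and −0.54. No Ikaros or CHD4 peak lay within 1 kb of these Mta3 starts.

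Mbd3, which encodes the methyl-binding-domain subunit, came next to Mta2 in median promoter acetylation (24.1), with folds of 23.3 and 30.4 at 0 h, 41.9 and 23.0 at 30 min, 31.9 and 24.8 at 1 h, and 23.5 and 14.9 at 2 h. Ikaros was called just upstream of its start (chr10:80399766-80400309, intergenic) in 6 of 8 libraries, at 4.31 in 0 h replicate 1, 3.35 in 30 min replicate 1, 4.93 and 6.81 at 1 h, and 5.97 and 2.75 at 2 h. The libraries without a call were 0 h replicate 2 and 30 min replicate 2, the same as for the Chd4 promoter region. Summits fell within 309 to 491 bp upstream of the 5′ end. CHD4 was called once there, in 2 h replicate 1 at a fold of 3.14.

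Of the 2 GATAD2 genes, which encode the zinc-finger subunits, Gatad2a held the only CHD4 region of the set that was gained. It lay upstream in intergenic sequence (chr8:70000917-70003042, near edge 4533 bp from the 5′ end) and was called in all 6 induced libraries and in neither 0 h library. The CHD4 fold was 3.37 and 3.44 at 30 min, 3.33 and 3.21 at 1 h, and 2.98 and 3.59 at 2 h. The −log10 q of these peaks was 1.26 to 3.34, in lists whose lowest values were 1.01 to 1.05, and all but the peak of 2 h replicate 2 were under 3. Gained here means called in both 2 h libraries and neither 0 h library, which 5.3% of all CHD4 regions met (1 of 12 near NuRD genes), with 2 against 2 libraries allowing no exact p under 0.333. The call was lost when peaks needed a fold of at least 3, a −log10 q of at least 3 or lists of equal size. Ikaros was already called in this stretch at 0 h and in all 8 libraries (chr8:70001039-70003384), with folds of 3.24 and 3.62 at 0 h, 4.52 and 4.36 at 30 min, 5.11 and 4.22 at 1 h, and 4.68 and 3.40 at 2 h. The intervals of the 0 h values (1.87 to 5.28 and 2.38 to 5.30) covered all 6 induced values. Its summits were spread from 4895 to 6538 bp upstream, so that the window without any GGAA or GGGA word shown for this gene is 1 of several. H3K27ac covered the same stretch in all 8 libraries, with folds from 7.73 to 18.4.

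At the Gatad2a start the Ikaros calls were split over short regions: 5 of 8 libraries had a peak in a region 1003 bp into the gene at folds of 3.71 to 6.37 (3 of them within 1 kb of a start), and 3 of 8 had one just upstream at 3.16 to 4.42. The promoter call in both 0 h libraries was at neither, but at an internal start 37980 bp into the gene, with folds of 5.17 and 4.17 at 0 h, 4.33 in 1 h replicate 2 and no call in the other libraries. Gatad2b had 1 Ikaros call (1 h replicate 2, fold 2.88) and no CHD4 call within 20 kb. Its H3K27ac promoter fold was 21.1 and 20.5 at 0 h, 21.9 and 25.2 at 30 min, 13.2 and 10.2 at 1 h, and 13.4 and 9.77 at 2 h. All 4 early values lay above all 4 late ones. The rank percentile among H3K27ac regions called in all 8 libraries was separated in the same way, at 79.3, 86.4, 77.0 and 95.5 early and 60.05, 65.6, 76.9 and 61.2 late. This separation was seen for 13% of such regions by fold and 3.77% by rank, and for 2 (Chd3 and Gatad2b) and 1 (Gatad2b) of the 10 NuRD promoters.

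**Figure D3:**
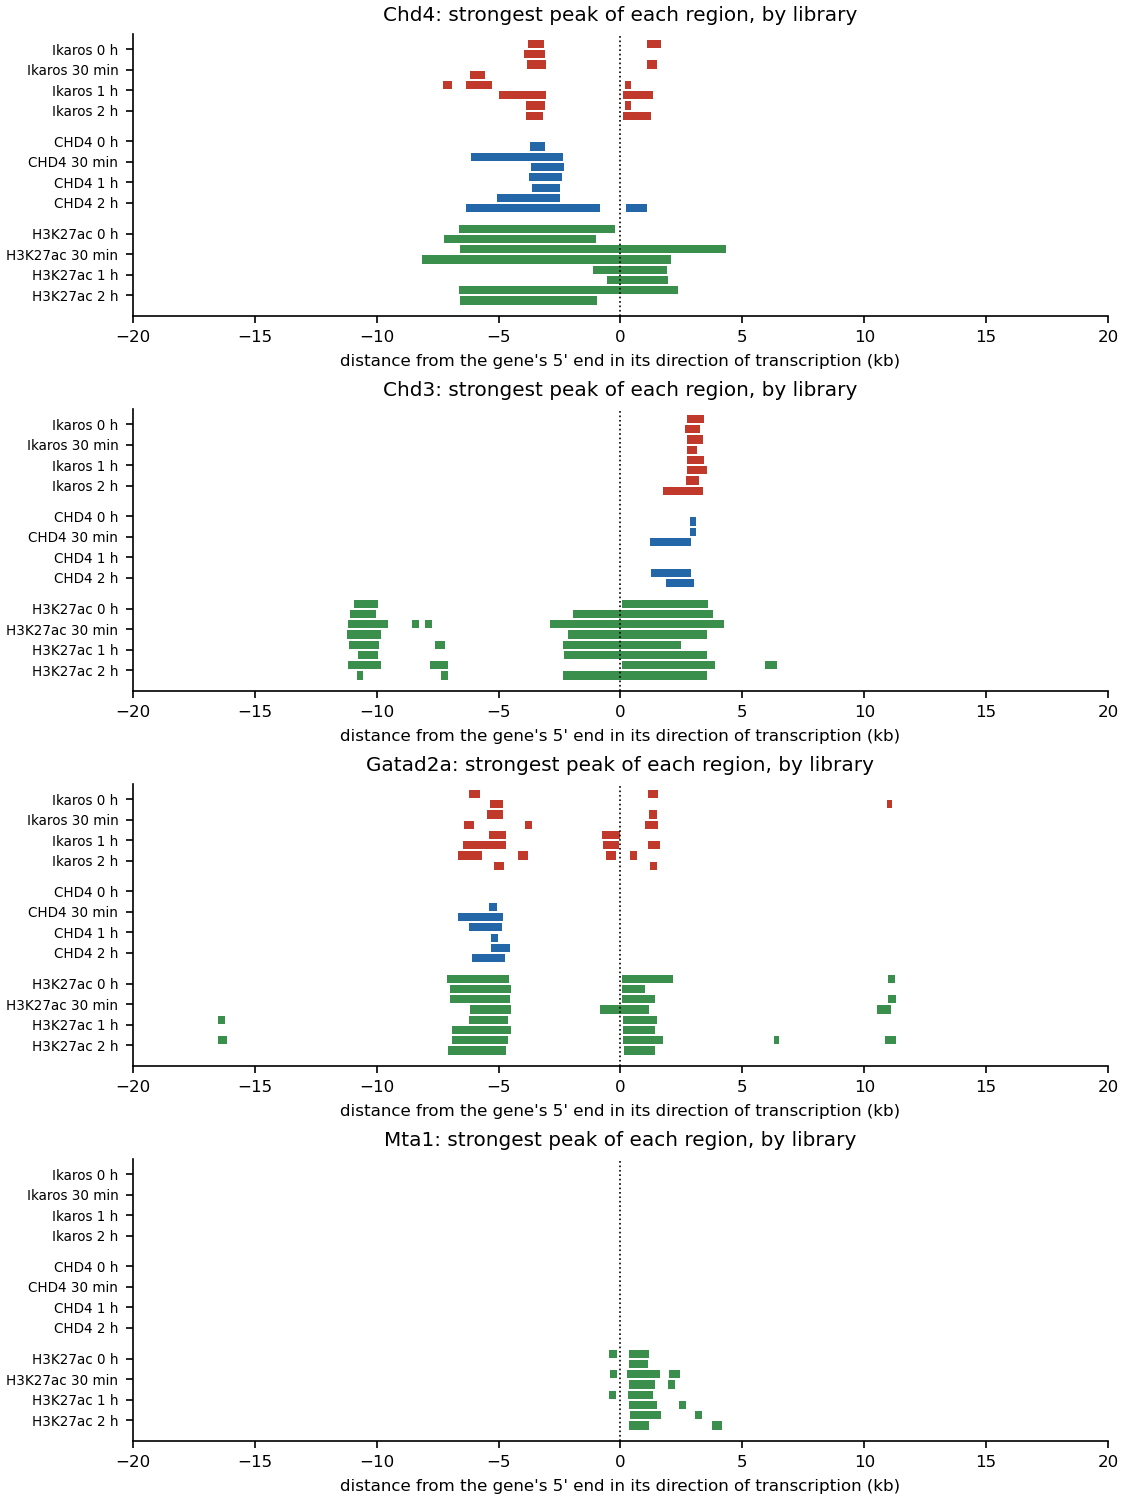
Peaks called around Chd4, Chd3, Gatad2a and Mta1, by distance from the gene's 5′ end (horizontal axis, kb, positive into the gene); each row is a library, with replicate 1 above replicate 2 at each time, and each bar is the strongest peak of a region in that library (red Ikaros, blue CHD4, green H3K27ac). The blue bars upstream of Gatad2a start at 30 min, while Mta1 has only green bars.

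**Figure D4:**
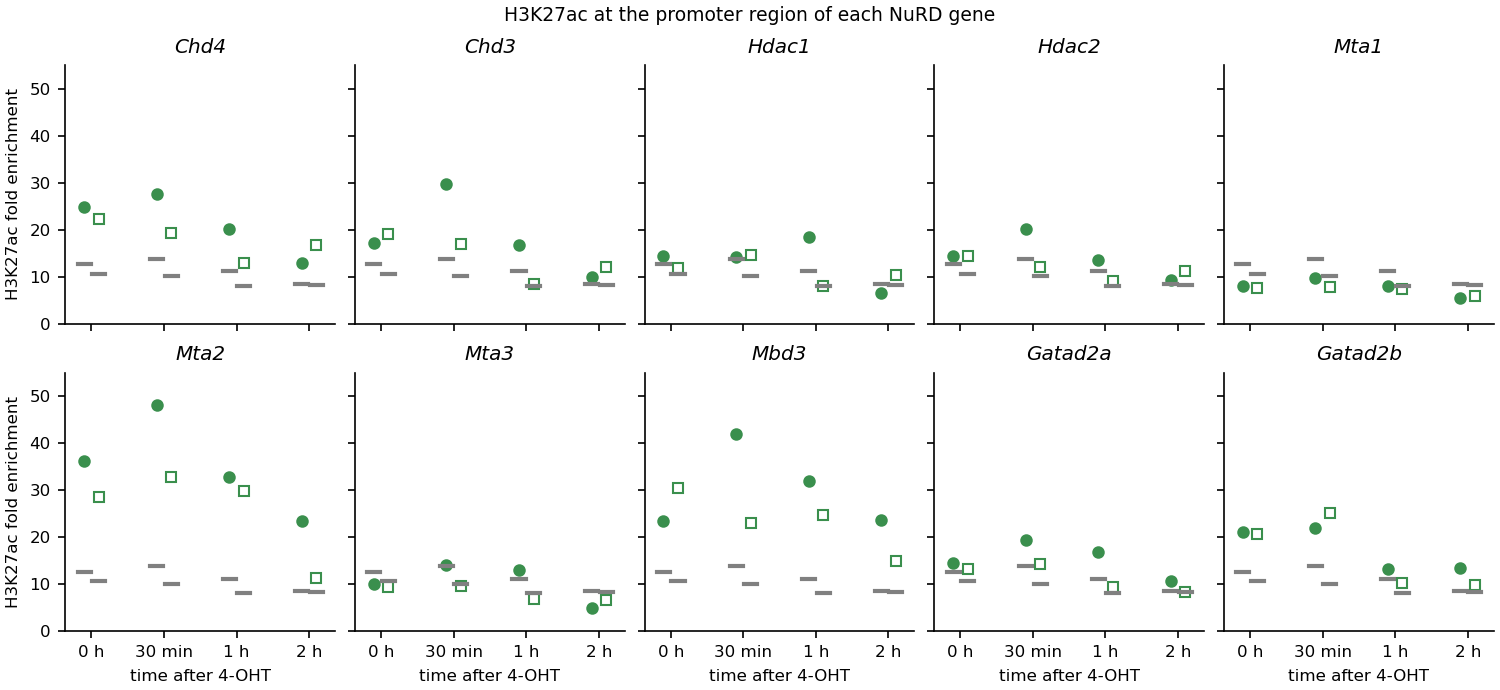
H3K27ac fold enrichment (vertical axis) of the promoter region of each NuRD gene by time after 4-OHT; filled circles are replicate 1, open squares replicate 2, and grey dashes the library's median over the 14716 H3K27ac regions called in all 8 libraries. Mta2 and Mbd3 have the highest medians (31.3 and 24.1) and Mta1 lies below the dashes throughout, and the dashes themselves are lower at 2 h than at 0 h. At Chd4 and Chd3 the summit of the strongest peak lies up to 3333 and 2958 bp from the 5′ end.

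The acetylation of the 10 promoters with time was compared by rank, since the median fold of shared H3K27ac regions itself moved with the library, from 12.6 and 10.5 at 0 h to 8.50 and 8.24 at 2 h. Of the 10 promoter regions 7 lay above the library's median in all 8 libraries, and the median percentile ran from 30.1 for Mta1 to 96.6 for Mta2. At Chd4 the summit moved between 3333 bp upstream and 358 bp into the gene. At Chd3 it moved between 853 and 2958 bp into the gene. Ranks of these regions therefore compare different places between libraries. Spearman's rho of rank with time was below 0 at all 10, from −0.732 (Gatad2b) to −0.0488 (Gatad2a) with a median of −0.317, against 49.2% below 0 among the 8599 shared H3K27ac regions at promoters. None of the 10 passed: the smallest exact permutation p was 0.0548 and its adjusted value 0.389. The count was 6 of 10 with ranks taken over whole lists, and 7 of 10 without either 2 h library.

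Of the 18 H3K27ac and 5 Ikaros regions near NuRD genes that were called in all 8 libraries, 0 passed the exact permutation test of rank against time at an adjusted p of 0.05. Over all such regions 0% passed for each target. At an unadjusted p under 0.05 there were 205 Ikaros (8.89%), 38 CHD4 (5.26%) and 1503 H3K27ac (10.2%) regions in the whole genome, against 0 of 5 Ikaros and 1 of 18 H3K27ac regions near NuRD genes. The rhos of the 5 Ikaros regions were between −0.244 and 0.244. None of the 12 CHD4 regions was called in all 8 libraries, so that target had no test here. The adjusted test has little reach: its smallest p is 0.000794, and at least 37 Ikaros or 234 H3K27ac regions would have to reach it together, where 6 and 78 did. A limma fit of log2 fold on hours, added after the data were seen, passed 0.26% of Ikaros and 0.19% of H3K27ac regions, and 0 of those near NuRD genes.

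The region with the unadjusted p of 0.0103 was not at a NuRD start but at that of Tut1, a terminal uridylyl transferase gene that neighbours Mta2, 10297 bp from its 5′ end. Its H3K27ac fold was 20.2 and 9.64 at 0 h, 22.9 and 16.1 at 30 min, 21.2 and 15.9 at 1 h, and 14.9 and 17.6 at 2 h. The rank percentile was 77.4 and 44.5 at 0 h and 81.6 and 89.2 at 2 h, and the fold went down in replicate 1 and up in replicate 2 between these times. Rank and time gave the highest rho of the tested regions near NuRD genes but did not pass (rho = 0.878, adjusted p = 0.258, exact permutation test). With Pearson's r of log2 fold in place of the rank it was 0.107 (exact permutation p = 0.811). The slope from limma was 0.31 ± 0.15 log2 units per hour (SE, adjusted p = 0.330). The same start held the only gained Ikaros region of the set (chr19:8953875-8954515), called in the 2 h libraries at folds of 4.16 and 3.84, from 15 and 11 fragments. Gained Ikaros regions were 1 of 23 near NuRD genes and 12% of all, and lost ones 0 of 23 and 3.59%. For H3K27ac 1 of 39 was gained, against 3.73%, and 0 were lost, against 2.78%. That gained region lay 7081 bp upstream of Chd3 in intergenic sequence, was also called in 1 library each at 30 min and 1 h, and had folds of 3.78 and 3.09 at 2 h. The Ikaros and the H3K27ac gain were both lost at a −log10 q of at least 3 and with lists of equal size. The Ikaros gain also lay outside a window of 10 kb. No CHD4 region was lost, against 1.45% of all.

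The overlap of Ikaros, CHD4 and H3K27ac regions near these genes is given beside that over all regions, and no difference was tested. Of the 12 CHD4 regions 11 (91.7%) overlapped an Ikaros region, beside 73.4% of all CHD4 regions. Of the 23 Ikaros regions 11 (47.8%) overlapped a CHD4 region, beside 54.6% of all Ikaros regions. H3K27ac regions overlapped 22 of 23 Ikaros regions (95.7%, beside 87.4% of all) and 11 of 12 CHD4 regions (91.7%, beside 85.1% of all). Within single libraries CHD4 overlapped 0 of 10 and 5 of 10 Ikaros peaks at 0 h, 5 of 12 and 6 of 10 at 30 min, 3 of 15 and 3 of 17 at 1 h, and 10 of 17 and 9 of 18 at 2 h. Among single libraries the lowest share was in 0 h replicate 1 and the highest in 30 min replicate 2. Both 1 h libraries lay below those at 30 min and 2 h, and the 0 h libraries were far apart. A NuRD gene had a median of 2 Ikaros regions and 1 CHD4 region within 20 kb, the same medians as genes with an acetylated promoter, and 4.5 H3K27ac regions where such genes had 2.

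A pair of further lists gave context. Of 5 other NuRD subunit genes 4 had an H3K27ac promoter peak in both 0 h libraries (the histone-binding subunits Rbbp4 and Rbbp7, the MBD3 relative Mbd2, and Cdk2ap1), and Chd5, a remodeller known from neurons, had none in any library. Ikaros promoter peaks were in both libraries at 0 of 5 at 0 h and 2 of 5 at 2 h (Rbbp4 and Mbd2), and CHD4 peaks at 0 of 5 at both times. The Ikaros count at 0 h was 2 without replicate 1 and 1 within 3 kb, and at 2 h it was 1 with equal lists. Of 10 genes of other deacetylase corepressors 9 were acetylated at 0 h, beside 44.4% of all protein-coding genes. Ikaros was at 2 of 10 at 0 h (Sin3a and Ncor1) and 5 of 10 at 2 h, with Rcor1, Rcor2 and Ctbp1 added. CHD4 was at 0 of 10 at 0 h and 3 of 10 at 2 h (Rcor1, Rcor2 and Ncor1). Of all genes with an acetylated promoter, 26.5% at 0 h and 48.1% at 2 h had an Ikaros promoter peak. For CHD4 these shares were 4.66% and 13%, and no difference from either list was tested. The counts of the corepressor genes depend on the setting. The CHD4 count at 2 h was 0 at a −log10 q of at least 3 and 1 with equal lists, and without replicate 1 it was 2 at 0 h and 5 at 2 h. The Ikaros count at 2 h was 2 with equal lists, and at 0 h it was 4 within 3 kb. Ncor1, which encodes the scaffold of the HDAC3 complex, had an Ikaros promoter peak in 8 of 8 libraries and a CHD4 peak in 7, while the most at the 10 NuRD genes was 6 for Ikaros and 4 for CHD4, and Rbbp4 had an Ikaros peak in 7.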

How the data were processed

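The data were 24 peak lists, 1 per library. Per the submitters' notes and the study's methods, reads in pairs were mapped to mm10 by the authors with Bowtie2 2.4.2, duplicates were marked with Picard 2.23.7 and peaks were called with MACS2 2.2.7.1, as broad peaks for CHD4 (deepTools 3.5.0 is also listed). The methods cover 0 h, 1 h and 2 h, and settings for 30 min are not given in the sources used here. List names mention an input. The 8 input libraries were not analysed here. Each deposited list gives a score, which was not used, and a fold enrichment (a ratio). It also gives −log10 values of p and q, so the p-value and q-value are those of the authors' caller, and narrow lists add the summit. No reads per region were given, so edgeR and DESeq2 were not used.

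The 10 genes, the other gene lists and the tests were chosen with earlier results of these data known. Named regions were, for each gene and target, the one within 1 kb of a start site with the highest mean fold rank, every gained or lost region within 20 kb and every region whose trend passed. Other regions that are named (upstream of Chd4 and Gatad2a, in the Chd3 intron, at Lck and at internal starts, and the H3K27ac region at Tut1, for its small unadjusted p), and Ncor1 by its library counts, were added after their values were seen. Start sites came from GENCODE M21, on the build of the lists. The fold was ranked in each library over regions called in all 8, and Spearman's rho with time was tested by an exact two-sided permutation over 2520 distinct orderings, with Benjamini-Hochberg adjustment over all such regions of a target. limma 3.58.1 (R 4.3.3) was added later, on log2 fold centred on the library median, and was chosen after seeing the data. Other steps used Python 3.11.15, numpy 2.4.6, scipy 1.17.1 and pandas 2.3.3. The fold and the p of a narrow peak rest on 1 pileup and 1 background, and solving for both gave the fragments at the summit for 265 of 266 narrow values near the genes. At the background level at least 99.95% of pileups were whole within 0.01 of a fragment. Intervals take the background as fixed, and reads carried no molecular identifiers. The steps were tested on simulated data. Whether a weak peak is called can depend on depth, which was not tested. Alternatives were stricter lists (−log10 q or fold at or above 3), lists cut to the same number of peaks, windows of 10 and 50 kb or around any start site, promoters of 3 kb, joining peaks only at 50% overlap, other scales, a replicate block and leaving out libraries. Some single genes of the marker and corepressor lists are not reported here.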

Additional observations from a re-analysis of the deposited data

How the results depend on the processing

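Counts of regions whose trend passed were 0 under each setting, which says nothing of stability because the adjusted test can hardly pass. Of 108 alternatives to the other counts that answer a comparison, 54 stayed within 1.5 times and 54 did not. The region counts (23 Ikaros, 12 CHD4, 39 H3K27ac) became 60, 34 and 96 with a window of 50 kb, 39, 21 and 59 around any annotated start, and 14, 5 and 25 with lists of equal size. CHD4 regions fell to 7 within 10 kb and to 2 at a −log10 q of at least 3. The 1 gained region of each target became 0 for all 3 at that q and with equal lists, 0 for CHD4 at a fold of at least 3 and 0 for Ikaros within 10 kb. Gains were 4 (Ikaros), 2 (CHD4) and 2 (H3K27ac) within 50 kb, and 3 (Ikaros) and 2 (H3K27ac) around any start. Losses, 0 for each target, were 3 (Ikaros) and 3 (H3K27ac) within 50 kb, 1 (Ikaros) around any start, and 1 (Ikaros) and 1 (CHD4) with equal lists. NuRD genes with an Ikaros promoter peak numbered 4 at 0 h and 6 at 2 h within 3 kb, 1 and 1 at the stricter q, 0 and 0 with equal lists, and 1 at 2 h at the stricter fold. For CHD4 they numbered 0 at 0 h at the stricter q and 3 at 2 h within 3 kb. With 1 replicate left out, where a call needs only the other library, gains ranged from 6 to 8 (Ikaros), 3 to 7 (CHD4) and 3 to 12 (H3K27ac) and losses from 1 to 2, 1 to 2 and 0 to 1. Promoter counts then ranged from 3 to 4 (Ikaros, 0 h), 4 to 6 (Ikaros, 2 h), 1 to 2 (CHD4, 0 h) and were 2 (CHD4, 2 h). Of the single trends, Ikaros at the Chd3 intron turned to 0.11 without 0 h replicate 2 (range −0.606 to 0.11), and at Gatad2a upstream to −0.0184 without 2 h replicate 1 (up to 0.753). The causes were not tested beyond what each setting does by its construction. Same-numbered replicates did not deviate together (correlations from −0.0319 to 0.0901 over the targets). These correlations cannot show whether such libraries shared a culture or a batch, which was not tested. The H3K27ac list of replicate 1 was the longer at each time, while for Ikaros and CHD4 the longer list varied. With a replicate block 0 trends passed. Under that block rho was −0.1 at the Chd3 intron and 0.9 at the Tut1 start, where Pearson's r of log2 fold was 0.107. Depth limits what a missing call can show.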
